A study of Arabidopsis thaliana with 6 samples.

Results

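The 10 genes described here maintain the shoot apical meristem of *Arabidopsis thaliana* and were picked by gene identifier, with earlier results of these data known. They are *STM*, *KNAT1*, *PNY*, *PNF*, *WUS*, *CLV1*, *CLV2*, *CLV3*, *HAM1* and *HAM2*, and 9 of them are among the 24292 genes of the count table. *WUS* was not analysed here. *CLV3* had too few counts to be tested, so 8 of the 10 genes entered the tests, with 21140 genes tested in all. Expression was measured by RNA-seq of poly(A) RNA in 6 libraries made from shoot apices that had been dissected from plants grown for 6 wk in short days. The plants grew at 22 °C with 8 h of light and 16 h of dark. There were 2 libraries of *val1* (the line *val1-2*), 2 labelled *val2* (the line *val2-1*) and 2 of WT (Col-0). Each *val* genotype was represented by 1 mutant line, and a library was made from 0.5 g of apices, so each held many cell types. VAL1 and VAL2 are B3-domain transcriptional repressors that recognise RY elements and recruit Polycomb proteins to genes such as *FLC*.

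The shoot apical meristem keeps a small population of stem cells at the tip of the shoot. WUS, made in the cells below them, maintains the stem cells, and these secrete the peptide CLV3, which acts through receptors such as CLV1 and CLV2 to limit *WUS*. The KNOX homeodomain proteins STM and KNAT1 hold cells in an undifferentiated state and act together with BELL homeodomain partners such as PNY and PNF. The HAM proteins are GRAS-domain partners of WUS, and the transcripts of several of them are cut under the guidance of miR171.

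*VAL1* (AT2G30470) was at 12.5 and 15.7 CPM in *val1*, against 40.3 and 55.4 CPM in WT, where CPM are counts scaled to a common library size after TMM normalization. *VAL2* (AT4G32010) was at 149.8 and 163.9 CPM in the *val2* libraries, against 39.9 and 40.9 CPM in WT. It was therefore higher in the libraries whose label gives the *val2-1* mutant, by 1.96 on the log2 scale (standard error, SE, 0.081, adjusted p = 6.15e-06). These are called the libraries labelled *val2* throughout. The libraries held between 22635808 and 33474422 counts, and replicates of a genotype differed with a biological coefficient of variation of 10.7%. Of the 3 genes that mark the shoot meristem, *STM* was well expressed, *CLV3* was near 0 and *WUS* was not analysed, so the label of the tissue rests on *STM* here. Flower markers summed to at most 1.36 CPM in any library. The 7 markers of dividing cells summed to between 257.7 and 274.0 CPM in *val1*, to between 189.5 and 195.9 CPM in the libraries labelled *val2* and to between 168.0 and 180.5 CPM in WT. Fewer cells of a type and less RNA per cell cannot be told apart in such libraries.

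In *val1*, 5 of the 8 tested meristem genes were upregulated and none was downregulated. A gene passed the test when its adjusted p was below 0.05 in the quasi-likelihood test of edgeR with Benjamini-Hochberg adjustment over all 21140 genes, and every adjusted p below comes from that test unless another is named. The 5 were *PNF*, *HAM2*, *HAM1*, *PNY* and *CLV1*, with log2 fold changes between 0.33 and 1.52. *STM*, *KNAT1* and *CLV2* did not pass. Of all genes tested, 45.7% passed in this comparison, 23.6% upwards and 22.1% downwards. The median log2 fold change was 0.44 over the 8 genes and 0.04 over all genes tested. In the libraries labelled *val2*, only *HAM2* passed among the 8, where 18.7% of all genes did, 8.69% upwards and 10.0% downwards.

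**Figure D1:**
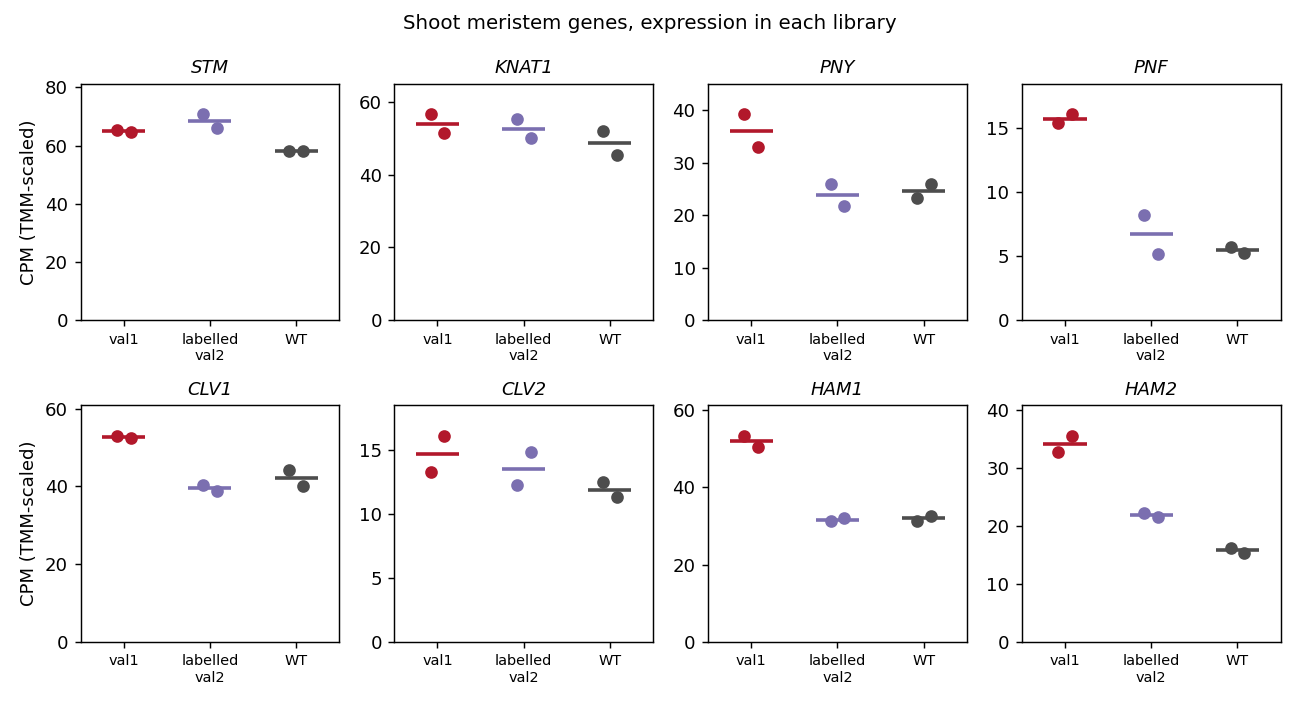
Expression of the 8 tested meristem genes in each library, in TMM-scaled CPM from a y axis that starts at 0. Points are the 2 libraries of *val1*, of the libraries labelled *val2* and of WT, and the bar is their mean. The *val1* points of *PNF*, between 15.4 and 16.1 CPM, lie far above the 5.27 and 5.72 CPM of WT, whereas the points of *KNAT1* overlap between all genotypes.

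The KNOX genes were the most highly expressed of the 8 per length in WT, and neither passed in *val1*. *STM* (AT1G62360, chr1:23058582-23062063, minus strand of TAIR10.1), which is required to form and keep the meristem, was at 65.4 and 64.8 CPM in *val1*, at 70.7 and 66.0 CPM in those labelled *val2*, and at 58.3 and 58.0 CPM in WT. Both *val1* libraries and both libraries labelled *val2* were above both WT libraries, but the differences were small. Relative to WT, *STM* was at 0.16 on the log2 scale in *val1* (SE 0.071, 95% interval 0.0020 to 0.32, adjusted p = 0.0913). It was at 0.23 in the libraries labelled *val2* (SE 0.071, adjusted p = 0.0502), just short of the threshold. *KNAT1* (AT4G08150, chr4:5147699-5151159, minus strand), also known as *BREVIPEDICELLUS*, shapes internodes and pedicels. Its values were 56.5 and 51.3 CPM in *val1*, 55.3 and 49.9 CPM in those labelled *val2*, and 52.1 and 45.5 CPM in WT. The groups overlapped, and the log2 fold change in *val1* was 0.14 (95% interval -0.072 to 0.36, adjusted p = 0.250). Between *val1* and the libraries labelled *val2*, the difference was -0.071 for *STM* (95% interval -0.23 to 0.089) and 0.034 for *KNAT1* (95% interval -0.18 to 0.25).

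The KNOX genes stayed in proportion to each other. The TPM of *KNAT1* was 0.731 and 0.669 times that of *STM* in the *val1* libraries, 0.661 and 0.640 times in those labelled *val2*, and 0.755 and 0.663 times in WT. TPM are the deposited transcript levels, which take the length of a gene into account. These ratios do not depend on how the libraries are scaled.

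The pair of BELL genes that partner STM were both upregulated in *val1*, *PNF* by much more. *PNY* (AT5G02030, chr5:395567-399125, plus strand), which is needed for inflorescence architecture and, together with *PNF*, for the floral transition, was at 39.2 and 33 CPM in *val1*, at 25.9 and 21.8 CPM in those labelled *val2*, and at 23.2 and 25.9 CPM in WT. Both *val1* libraries exceeded the other 4. *PNY* was upregulated 1.47-fold, or by 0.55 on the log2 scale (SE 0.12, adjusted p = 0.00526). Its change was -0.042 in the libraries labelled *val2* (95% interval -0.32 to 0.23, adjusted p = 0.848).

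*PNF* (AT2G27990, chr2:11921350-11924748, minus strand) acts redundantly with *PNY*. It was at 15.4 and 16.1 CPM in *val1*, from 380 and 495 counts. The libraries labelled *val2* had 8.21 and 5.17 CPM, and those of WT had 5.72 and 5.27 CPM, from 144 and 163 counts. The *val1* libraries were thus far above all the others, and the 2 libraries labelled *val2* were on either side of the WT values. *PNF* was upregulated 2.87-fold in *val1*, the most of the 8 genes, or by 1.52 on the log2 scale (SE 0.20, 95% interval 1.07 to 1.97, adjusted p = 0.000300). Its change was 0.29 in the libraries labelled *val2* (95% interval -0.17 to 0.75, adjusted p = 0.365). Without replicate 1 labelled *val2* this value was -0.079, so it rested on that library.

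*PNF* gained on *PNY* in *val1*. The TPM of *PNF* was 0.399 and 0.494 times that of *PNY* in *val1*, 0.318 and 0.240 times in the libraries labelled *val2*, and 0.248 and 0.208 times in WT. The ratios of *val1* did not overlap with the others.

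The start of *PNF* is shown because *VAL1* encodes an RY-binding protein and *PNF* is the only one of the 8 tested meristem genes with the core of an RY element near its start. The word searched was CATGCA on both strands (TGCATG on the other), from 250 bases before to 50 bases after the annotated start. The 250 bases before the start, chr2:11924749-11924998 on the minus strand of TAIR10.1, hold it once, in capitals, with its first base at -166.
*PNF*: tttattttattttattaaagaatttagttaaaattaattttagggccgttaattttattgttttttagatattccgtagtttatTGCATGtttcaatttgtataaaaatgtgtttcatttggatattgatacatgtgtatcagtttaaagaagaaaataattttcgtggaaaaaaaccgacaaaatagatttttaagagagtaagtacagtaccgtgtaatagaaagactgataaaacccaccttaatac
The same word occurs in 2667 of 27443 such windows of the genome, or 9.72%. Of the 10 genes, *WUS* also has it, at -125. The rest of each gene was not searched, although the study found VAL1 bound within the gene bodies of *BOP1* and *BOP2*. No binding was measured in these libraries, and whether the word takes part in the change of *PNF* was not tested.

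**Figure D2:**
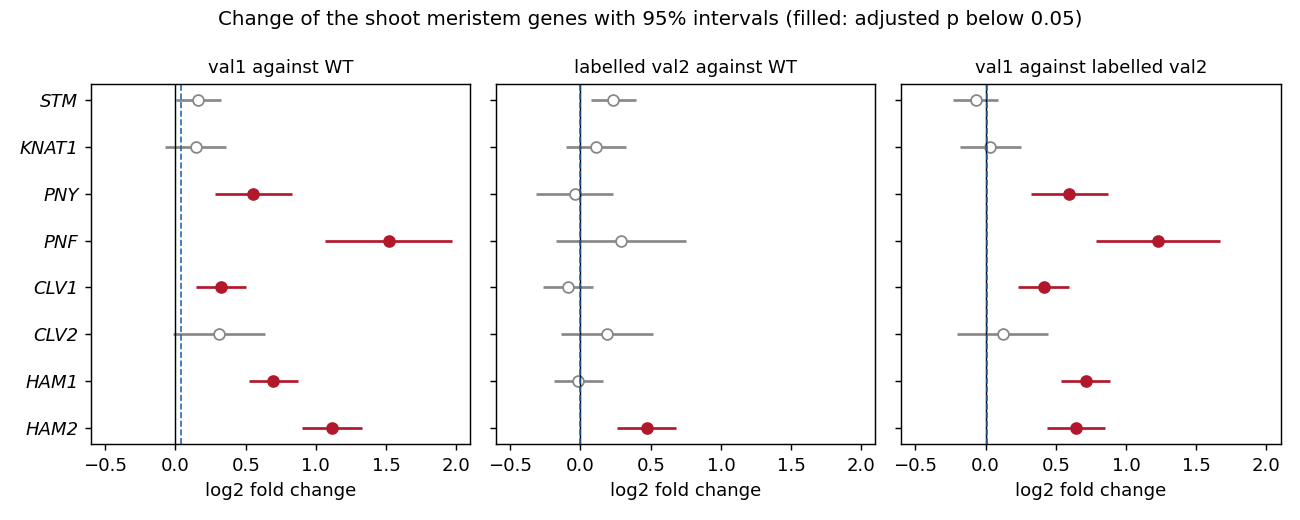
Log2 fold changes of the 8 meristem genes (points) with 95% intervals (lines) in *val1* against WT, in the libraries labelled *val2* against WT and in *val1* against the libraries labelled *val2*. Filled points have an adjusted p below 0.05, and the dashed line is the median of all 21140 genes tested. In *val1* the values run between 0.14 for *KNAT1* and 1.52 for *PNF*, and only *HAM2*, at 0.47, is filled in the middle panel.

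Of the receptors of the CLAVATA pathway, *CLV1* changed in *val1*. *CLV1* (AT1G75820, chr1:28463344-28466971, minus strand) encodes a receptor kinase that binds the CLV3 peptide. It was at 52.9 and 52.5 CPM in *val1*, at 40.4 and 38.7 CPM in those labelled *val2*, and at 44.2 and 40.0 CPM in WT. The *val1* libraries were close to each other and above all the others. *CLV1* was upregulated 1.25-fold, or by 0.33 on the log2 scale (SE 0.079, adjusted p = 0.00893), while in the libraries labelled *val2* it was at -0.088 (95% interval -0.27 to 0.092, adjusted p = 0.486). The call in *val1* was lost without replicate 2 of WT, with a log2 fold change of 0.25 and an adjusted p of 0.0894.

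*CLV2* (AT1G65380, chr1:24286742-24289329, plus strand), which encodes a receptor-like protein without a kinase domain, was at 13.3 and 16.1 CPM in *val1*, at 12.2 and 14.8 CPM in those labelled *val2*, and at 12.5 and 11.3 CPM in WT. The *val1* values were both above WT, but the replicates were as far apart as the groups. Its difference from WT was 0.31 on the log2 scale in *val1* (95% interval -0.019 to 0.64, adjusted p = 0.113) and 0.19 in the libraries labelled *val2* (95% interval -0.14 to 0.52, adjusted p = 0.411).

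The ligand *CLV3* (AT2G27250, chr2:11664978-11665797, minus strand) was barely detected. It had 0 and 6 counts in *val1*, 4 and 3 counts in the libraries labelled *val2*, and 2 and 4 counts in WT. A library with 0 counts allows up to 3, so no difference was detectable at this depth and no fold change is given.

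The genes for the HAM partners of WUS showed the clearest pattern. *HAM1* (AT2G45160, chr2:18617862-18620451, minus strand) was at 53.3 and 50.6 CPM in *val1*, at 31.3 and 32.0 CPM in those labelled *val2*, and at 31.4 and 32.6 CPM in WT. The *val1* libraries were well above the other 4, whose ranges overlapped. *HAM1* was upregulated 1.62-fold in *val1*, or by 0.70 on the log2 scale (SE 0.076, adjusted p = 9.98e-05), and in the libraries labelled *val2* it was -0.015 (95% interval -0.19 to 0.16, adjusted p = 0.918).

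*HAM2* (AT3G60630, chr3:22410240-22412663, minus strand) was the only one of the 8 that passed in both comparisons with WT. It was at 32.8 and 35.5 CPM in *val1*, at 22.2 and 21.5 CPM in those labelled *val2*, and at 16.2 and 15.4 CPM in WT. The genotypes did not overlap at all, and those labelled *val2* lay between the others. *HAM2* was upregulated 2.17-fold in *val1*, or by 1.12 on the log2 scale (SE 0.093, adjusted p = 2.06e-05). It was upregulated 1.39-fold in the libraries labelled *val2*, or by 0.47 (SE 0.093, adjusted p = 0.0101). The 2 comparisons share their WT libraries. The call in the libraries labelled *val2* was lost without their replicate 1 (0.45, adjusted p = 0.0633) and without replicate 2 of WT (0.43, adjusted p = 0.0689). The TPM of *HAM2* was 0.657 and 0.749 times that of *HAM1* in *val1*, 0.757 and 0.714 times in the libraries labelled *val2*, and 0.550 and 0.503 times in WT.

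The other HAM genes did not follow. *HAM3* (AT4G00150, chr4:57140-59495, minus strand) was at 10.0 and 8.70 CPM in *val1*, at 14.7 and 18.3 CPM in those labelled *val2*, and at 18.6 and 18.5 CPM in WT. It was lower in *val1* than in every other library, at -0.99 on the log2 scale relative to WT (SE 0.14, adjusted p = 0.000448). *HAM4* (AT4G36710, chr4:17305758-17307648, plus strand) was at 46.3 and 39.0 CPM in *val1*, at 55.7 and 44.2 CPM in those labelled *val2* and at 41.2 and 38.4 CPM in WT, and its log2 fold change in *val1* was 0.10 (adjusted p = 0.548).

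The target sites of miR171 are shown because the HAM genes that moved in opposite directions carry the same one. The mature miR171a-3p (from chr3:19073521-19073541, plus strand) has its seed, bases 2 to 8, in capitals. Below it stand the sites in the coding sequences that pair best with it, written 5′ to 3′ as DNA, with bases that pair in the antiparallel duplex in capitals.
miR171a-3p: uGAUUGAGccgcgccaauauc
*HAM1* site (chr2:18619128-18619148, minus strand): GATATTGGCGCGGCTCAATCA
*HAM2* site (chr3:22411544-22411564, minus strand): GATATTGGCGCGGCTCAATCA
*HAM3* site (chr4:58411-58431, minus strand): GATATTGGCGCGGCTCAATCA
*HAM4* best match (chr4:17306488-17306508, plus strand): GgTtTTatCaCGGCTtAATCA
All 21 bases pair in *HAM1*, *HAM2* and *HAM3*, which share an identical site, and 15 of 21 pair in the best match of *HAM4*, with 6 mismatches. *HAM1* and *HAM2* were upregulated in *val1* and *HAM3* was downregulated. The sites are the same in genes of either direction, and whether miR171 takes part in these changes was not tested. The mature miRNA was not measured. The primary transcripts of *MIR171A*, *MIR171B* and *MIR171C* had at most 0.13 CPM in any library and were not tested.

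The miRNAs of the other loci differ from miR171a-3p in where their seed lies. The mature sequences of miR171b-3p and miR171c-3p are identical to each other, again with the seed in capitals.
miR171b-3p: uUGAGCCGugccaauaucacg
The site that pairs best with it starts 3 bases further upstream in each transcript. It has 3 mismatches in *HAM1*, *HAM2* and *HAM3* and 6 in *HAM4*.

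Between *val1* and the libraries labelled *val2*, the same 5 genes as against WT passed, all higher in *val1*. Of all genes tested, 35.7% passed in this comparison, 17.7% upwards and 18.0% downwards. *CLV1* was higher by 0.41 on the log2 scale (adjusted p = 0.00344), *PNY* by 0.60 (adjusted p = 0.00467) and *PNF* by 1.23 (adjusted p = 0.00124). *HAM1* was higher by 0.71 (adjusted p = 0.000128) and *HAM2* by 0.65 (adjusted p = 0.000650). *CLV2* differed by 0.12 (95% interval -0.20 to 0.45, adjusted p = 0.551). Since this comparison tests the difference itself, the response of *PNF*, *HAM1*, *HAM2*, *PNY* and *CLV1* was larger in *val1* than in the libraries labelled *val2*. It shares the *val1* libraries with the comparison against WT.

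The ranges of the libraries come from the same counts as the tests, and against WT they separated more of the 8 genes than passed. Both *val1* libraries were above both WT libraries for 7 of the 8 genes, all but *KNAT1*, where 40.0% of all genes tested had this order. Both libraries labelled *val2* were above both of WT for 2 of the 8, *STM* and *HAM2*, where 31.1% of all genes did. Both *val1* libraries were above both libraries labelled *val2* for 5 of the 8, the genes that passed, where 35.4% of all genes did. By the stricter definition of a DEG, an adjusted p below 0.05 and a change of at least 2-fold, *PNF* and *HAM2* were DEGs in *val1*, where 15.7% of all genes were, 5.89% upwards and 9.81% downwards. None of the 8 was a DEG in the libraries labelled *val2*, where 3.18% of all genes were, 0.918% upwards and 2.27% downwards. Between *val1* and those libraries only *PNF* was a DEG, where 12.1% of all genes were, 5.17% upwards and 6.94% downwards, and its change was under 2-fold there without replicate 2 labelled *val2* (0.94).

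**Figure D3:**
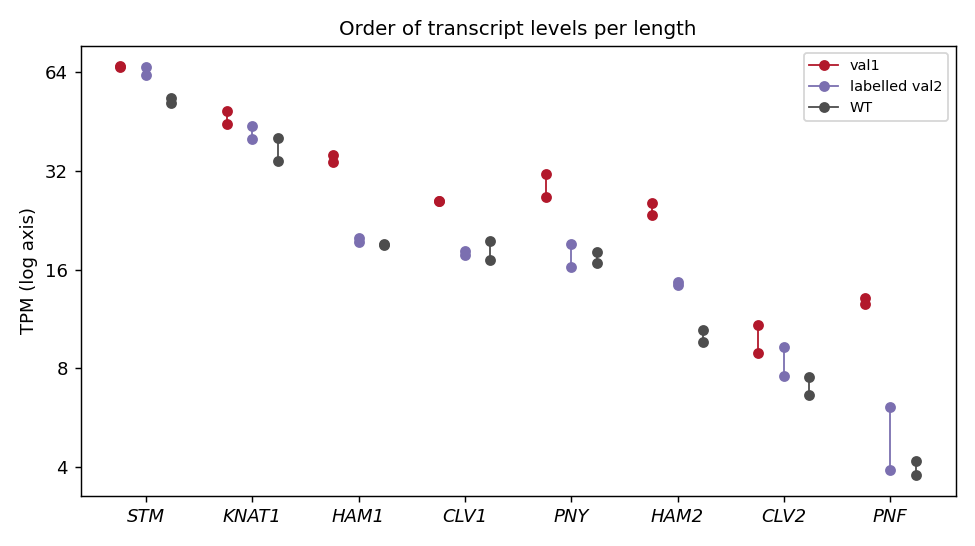
Transcript levels per length (TPM, log axis) of the 8 meristem genes, ordered by their WT mean. Each pair of joined points shows the 2 libraries of *val1*, of the libraries labelled *val2* and of WT. *STM* was highest in all, and *PNF*, lowest in WT at 3.78 and 4.16 TPM, was at 12.5 and 13.1 TPM in *val1*, above *CLV2*.

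Per length, *STM* had the highest level of the 8 genes in every library. It averaged 66.7 ± 0.17 TPM in *val1*, 64.7 ± 2.7 TPM in the libraries labelled *val2* and 52.7 ± 1.3 TPM in WT (SD, n = 2 each). *KNAT1* was second, with 46.7 ± 3.0, 42.1 ± 2.7 and 37.4 ± 4.4 TPM in the same groups. On log2(TPM + 1), over the 14831 genes with a mean TPM of at least 1, the median log2 fold change in *val1* against WT was itself 0.285. *STM* was 0.048 and *KNAT1* 0.03 above that median. With no filter on TPM the median was 0.134, with *STM* at 0.333 and *KNAT1* at 0.315. How far they stood above the median thus depended on which genes were counted. In WT, *HAM1* (19.1 ± 0.12 TPM), *CLV1* (18.3 ± 1.7 TPM) and *PNY* (17.5 ± 0.95 TPM) followed at levels that overlapped between neighbours. They stood above *HAM2* (10.0 ± 0.57 TPM), *CLV2* (7.10 ± 0.64 TPM) and *PNF* (3.97 ± 0.27 TPM), which did not overlap with each other.

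The order was not the same in *val1*. *HAM1* stood at 35.0 ± 1.2 TPM and *PNY* at 29.1 ± 3.4 TPM. *CLV1* at 25.9 ± 0.014 TPM and *HAM2* at 24.6 ± 1.5 TPM came next, so that *HAM2* had come close to *CLV1*. *PNF*, at 12.8 ± 0.43 TPM, was above *CLV2*, at 9.91 ± 1.4 TPM. The means had the order of WT in the libraries labelled *val2*, where *CLV1* and *PNY* overlapped at 18.0 ± 0.40 and 17.7 ± 2.0 TPM. *HAM2*, at 14.5 ± 0.25 TPM, was still below both there.

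Set against *STM* within each library, the 5 genes that passed in *val1* split in the libraries labelled *val2*. The TPM of *PNF* was 0.188 and 0.198 times that of *STM* in *val1*, 0.0915 and 0.0624 times in the libraries labelled *val2*, and 0.0775 and 0.0729 times in WT. For *HAM1* it was 0.536 and 0.513 times in *val1*, 0.291 and 0.319 times in the libraries labelled *val2*, and 0.354 and 0.370 times in WT. For *CLV1* it was 0.388 and 0.389 times in *val1*, 0.274 and 0.282 times in the libraries labelled *val2*, and 0.364 and 0.331 times in WT. The TPM of *PNY* was 0.471 and 0.400 times that of *STM* in *val1*, 0.288 and 0.260 times in the libraries labelled *val2*, and 0.313 and 0.350 times in WT. That of *HAM2* was 0.352 and 0.385 times in *val1*, 0.221 and 0.228 times in the libraries labelled *val2*, and 0.195 and 0.186 times in WT. Relative to *STM*, *HAM1*, *CLV1* and *PNY* were thus lower in both libraries labelled *val2* than in both WT libraries, *PNF* overlapped and *HAM2* was higher, while in *val1* all 5 were higher. *STM* itself was at 0.23 in the libraries labelled *val2*, and *HAM1* was at -0.015.

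The relatives of these genes were followed as lists. Of the other KNOX genes, 3 of 6 were upregulated in *val1* and none was downregulated, with a median log2 fold change of 0.43, where 45.7% of all genes passed, 23.6% upwards. *KNAT4*, a class II KNOX gene, was at 21.7 and 31.0 CPM in *val1* against 9.61 and 9.34 CPM in WT (log2 fold change 1.48, adjusted p = 0.000281). Of the class I KNOX genes, to which *STM* and *KNAT1* belong, *KNAT2* was upregulated (0.69, adjusted p = 0.0119), and *KNAT6*, which acts at boundaries, was at 0.26 (adjusted p = 0.269). None of the 6 passed in the libraries labelled *val2*.

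Of the other 11 BELL genes, 7 were upregulated in *val1* and none was downregulated, with a median of 0.79, where 23.6% of all genes were upregulated. The 4 that did not pass included *BLH1* at -0.12 (adjusted p = 0.275). *ATH1*, which keeps the stem short in the vegetative phase and is a partner of STM, was at 64.8 and 61.2 CPM in *val1* against 27.0 and 26.5 CPM in WT (log2 fold change 1.24, adjusted p = 1.19e-05). *BLH6* (1.06, adjusted p = 0.000399) and *BEL1*, an ovule identity gene at low level here (1.27, adjusted p = 0.0129), were the remaining DEGs. Of the 11, 1 was upregulated and 2 were downregulated in the libraries labelled *val2*, with a median of -0.04, where 8.69% and 10.0% of all genes were. *ATH1* was the one upregulated, by 0.46 (adjusted p = 0.0111).

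Of the other genes of the CLAVATA pathway, 11 of 14 tested were upregulated in *val1* and 1 was downregulated, with a median of 0.73, where 23.6% of all genes were upregulated and 22.1% were downregulated. *CRN*, which encodes the partner of CLV2, was at 13.9 and 14.6 CPM in *val1*, against 5.12 and 3.94 CPM in WT (log2 fold change 1.66, adjusted p = 7.19e-05). *BAM2*, a close relative of *CLV1*, was at 82.6 and 84.0 CPM in *val1*, against 32.9 and 32.6 CPM in WT (1.35, adjusted p = 2.09e-06). The one downregulated was *RPK2*, a receptor kinase of a separate branch of the pathway (-0.46, adjusted p = 0.00366). So *CRN* was upregulated while its partner *CLV2* did not pass. Of the same 14, 6 were upregulated, *CRN* among them (0.74, adjusted p = 0.0198), and none was downregulated in the libraries labelled *val2*, where 8.69% of all genes were upregulated, while *CLV1* and *CLV2* did not pass.

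**Figure D4:**
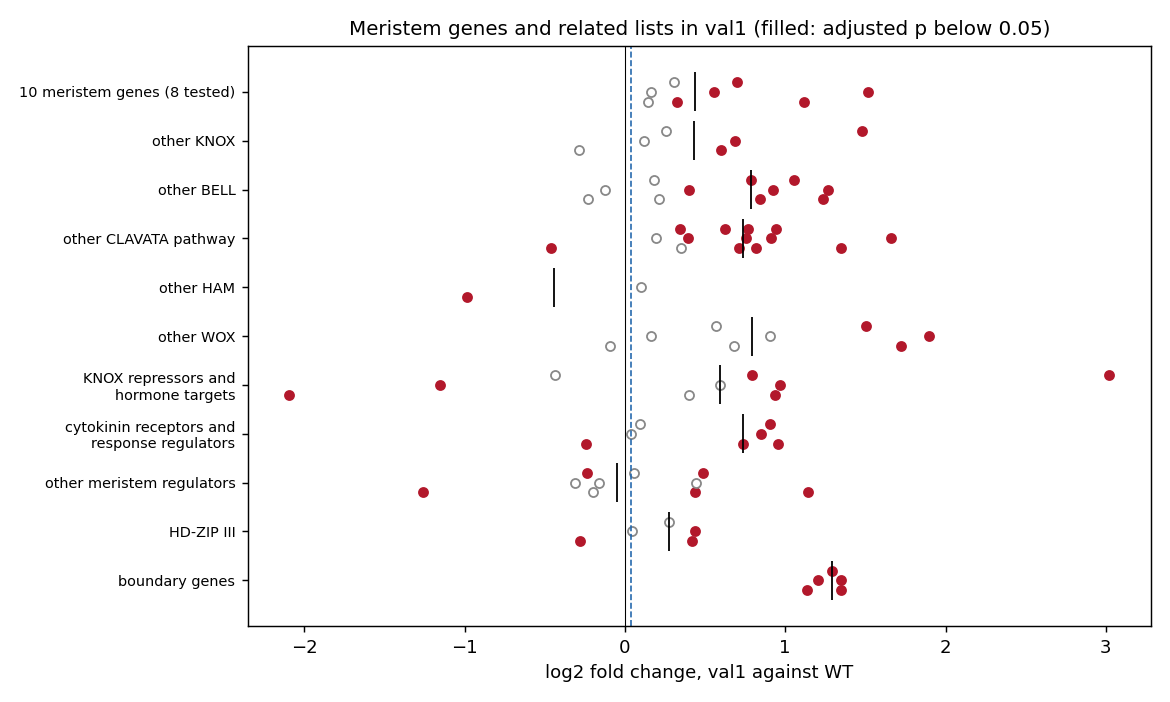
Log2 fold changes in *val1* against WT of the 8 tested meristem genes and of the genes of 10 related lists. Each point is a gene, filled where the adjusted p was below 0.05, black ticks are the medians of the lists and the dashed line is the median of all genes tested. All 5 boundary genes lie above 1, and of the 2 other HAM genes *HAM3* lies at -0.99 and *HAM4* at 0.10.

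Around *WUS* and *STM*, changes went in both directions. Of the other *WOX* genes, 3 of 8 tested were upregulated in *val1*, all as DEGs and all at low level, where 5.89% of all genes were upregulated DEGs. They were *WOX4*, which acts in the vascular cambium (1.73, adjusted p = 0.000792), *WOX1*, which acts in leaf blades (1.50, adjusted p = 0.000463), and *WOX5*, known from the root stem cell niche (1.90, adjusted p = 0.0185, at 0.932 and 1.46 CPM in *val1* against 0.318 and 0.323 CPM in WT). Among the repressors and hormone targets of KNOX proteins, 4 of 9 were upregulated and 2 were downregulated, where 23.6% and 22.1% of all genes were. *GA20ox1*, a gibberellin biosynthesis gene that KNOX proteins repress, was at 1.90 and 3.38 CPM in *val1* against 0.397 and 0.259 CPM in WT (3.02, adjusted p = 0.00137). *GA2ox2*, which inactivates gibberellin, was at 28.4 and 37.6 CPM in *val1* against 118.2 and 164.0 CPM in WT (-2.09, adjusted p = 2.06e-05), and *LOG7*, which activates cytokinin, was also downregulated (-1.15, adjusted p = 0.000643). *STM* and *KNAT1* themselves did not pass in the same comparison.

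Of the cytokinin receptors and the response regulators that WUS represses, 4 of 7 were upregulated in *val1* and 1 was downregulated, none by 2-fold, where 23.6% and 22.1% of all genes passed in these directions. The receptor gene *AHK4* was at 73.4 and 78.0 CPM in *val1* against 49.5 and 41.6 CPM in WT (0.73, adjusted p = 0.000249), and *ARR5* had a log2 fold change of 0.85 (adjusted p = 0.00350). Of 10 tested other regulators of the meristem, 3 were upregulated and 2 were downregulated, with a median of -0.05, which is near the 23.6% and 22.1% of all genes. *FAS1*, a chromatin assembly factor subunit gene, was upregulated (1.14, adjusted p = 0.000256) and *OBE1*, a PHD finger gene, was downregulated (-1.26, adjusted p = 6.16e-06). Of the HD-ZIP III genes, 2 of 5 were upregulated and 1 was downregulated, where 23.6% and 22.1% of all genes were. They were led by *ATHB8* (0.44, adjusted p = 0.00150) and *PHB* (0.42, adjusted p = 0.00306).

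The genes of organ boundaries, some of which PNY and PNF keep out of the stem and the meristem, were upregulated in *val1*, where *PNY* and *PNF* were upregulated as well. All 5 were upregulated DEGs, where 5.89% of all genes were, with log2 fold changes between 1.14 and 1.35. *BOP1* was at 8.35 and 7.37 CPM in *val1* against 3.30 and 2.88 CPM in WT, and *BOP2* was at 35.3 and 31.1 CPM in *val1* against 15.2 and 11.9 CPM in WT. *CUC1*, *CUC2* and *CUC3* were at most at 3.81 CPM in *val1*. None of the 5 passed in the libraries labelled *val2*. The study had its attention on *BOP1* and *BOP2* in these samples, so their direction is not independent evidence.

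Of the cell type markers, the sums for dividing cells, leaf mesophyll and leaf primordia were higher in both *val1* libraries than in WT, the sum for vasculature was lower, and that for epidermis overlapped. In *val1*, 5 of the 7 markers of dividing cells were upregulated, among them *CYCA1;1* at 1.31. So were 6 of the 7 of leaf mesophyll, all 3 of leaf primordia and 1 of the 2 of epidermis, where 23.6% of all genes were. The mesophyll markers include *GLK1* and *GLK2*, which the study reports as raised in *val1* and as bound directly by VAL1 in seedlings. Whether such markers follow leaf tissue or the loss of VAL1 was not tested. Of the 4 markers of vasculature, 2 were downregulated, where 22.1% of all genes were. The 7 markers of leaf mesophyll summed to between 6645 and 6754 CPM in *val1*, to between 4430 and 4764 CPM in the libraries labelled *val2* and to between 5292 and 5690 CPM in WT. The 3 markers of leaf primordia summed to between 104.5 and 105.9 CPM in *val1*, to between 100.6 and 102.6 CPM in the libraries labelled *val2* and to between 73.9 and 82.9 CPM in WT. The 4 markers of vasculature summed to between 38.9 and 46.6 CPM in *val1*, to between 46.8 and 47.6 CPM in the libraries labelled *val2* and to between 56.1 and 60.9 CPM in WT. Epidermis markers summed to between 845.4 and 1041 CPM in *val1*, to between 873.3 and 1024 CPM in the libraries labelled *val2* and to between 823.3 and 904.6 CPM in WT, so their ranges overlapped. Root markers were at most at 1.53 CPM in sum, nearly all of it *WOX5*. The meristem markers with a row, *STM* and *CLV3*, summed to between 65.0 and 65.4 CPM in *val1*, to between 66.1 and 70.8 CPM in the libraries labelled *val2* and to between 58.1 and 58.4 CPM in WT. The part of tissue composition in the changes of the meristem genes was not tested.

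Genes with profiles most like those of the upregulated members were sought among 15572 genes with a mean of at least 5 CPM, by the root mean square distance of log2 CPM, centred on each gene's mean, over the 6 libraries. For *CLV1* the nearest was *PAP12* (0.022). For *PNY* they were led by AT1G79420 (0.047), with *UGT76C1* and *LTO1* next, and for *PNF* by AT3G26700 (0.087), with *ERF5* next. For *HAM1* they were AT2G01610 (0.032), *HSP81-2* (0.040) and *BAM1* (0.046), and for *HAM2* they were led by AT3G20015 (0.051). None of the meristem genes was among the 3 nearest genes of another. *PNY* and *HAM1* were nearest to each other, at rank 203 for *PNY* and 243 for *HAM1*.

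**Figure D5:**
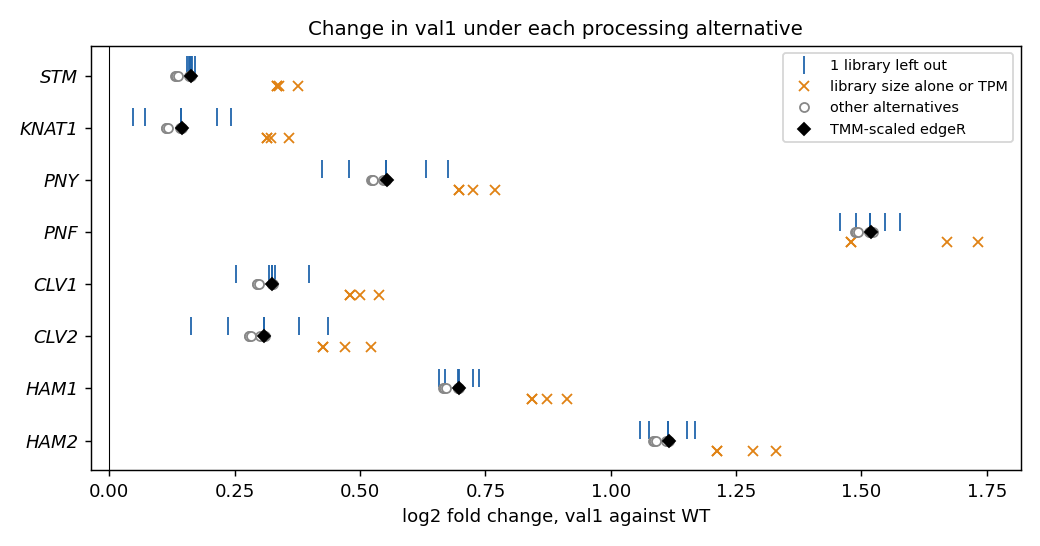
Log2 fold changes of the 8 meristem genes in *val1* against WT under each processing alternative. Diamonds are the reported values, ticks leave out 1 library, crosses use library size alone or TPM, and open circles are all other alternatives. All values are above 0, and *PNF* and *HAM2* lie above 1 throughout.

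The level of *STM*, *KNAT1* and *CLV2* in *val1* depended on how the libraries were scaled. With library size alone, the median log2 fold change of all genes was 0.25 in *val1* instead of 0.04. All 8 meristem genes then passed, where 56.6% of all genes did instead of 45.7%. *STM* was then at 0.38 (adjusted p = 0.00220), *KNAT1* at 0.36 (adjusted p = 0.0147) and *CLV2* at 0.52 (adjusted p = 0.0129). Relative to the median of all genes, *STM* was at 0.13 with either scaling and *KNAT1* at 0.11. On log2(TPM + 1), with the filter of a mean TPM of at least 1, they were at 0.05 and 0.03. Of the genes that passed in *val1*, 72.0% were upregulated with library size alone and 67.1% on log2(TPM + 1), against 51.6% with TMM. *PNF*, *HAM2*, *HAM1* and *PNY* were above that median by at least 0.515 with either scaling, and by at least 0.413 on log2(TPM + 1). *CLV1* was above it by 0.29 and *CLV2*, which did not pass with TMM, by 0.27, and on log2(TPM + 1) these were at 0.20 and 0.14. The exons of the 10 genes hold no 50-base word that occurs elsewhere in the genome, and no other annotated gene overlaps them, so their reads could be told apart from those of their relatives.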

How the data were processed

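RNA-seq libraries, 2 per genotype, were made with a stranded poly(A) kit, and genotypes were taken from the labels. According to the Methods and the submitters' processing notes, the authors used cutadapt for trimming and STAR for mapping to TAIR10, and estimated gene abundance with stringtie on Araport11. The deposited estimated counts are whole numbers collected by prepDE.py3, not normalized. The deposited TPM values come from the same estimates by the authors and cover 16383 genes. Tool versions are not given in the sources used here.

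Of 24369 entries in the count table, 77 name no gene and were left out (at most 0.00266% of the counts). The counts were analysed with edgeR 4.0.16 in R 4.3.3, with filterByExpr, TMM scaling (with factors of 0.925 to 1.09) and 1 quasi-likelihood model of all libraries with a mean per genotype (3 residual degrees of freedom). Intervals are at 95%. P-values measure the spread between these libraries. Between replicates the chi-square per gene was at least 9.22, more than counting error gives. The procedure was tested on simulated data. Alternatives were DESeq2 1.42.0, DESeq2 size factors, library size alone, no filter, only genes averaging 50 counts or more, a fit of just the 2 genotypes compared, each library left out, a replicate block, halved counts, a 2-fold threshold, and limma 3.58.1 on log2(TPM + 1) and log2(TPM + 0.1) with a mean TPM of at least 1, and on log2(TPM + 1) with no filter. All values of every member are given. From related lists, DEGs are named, or, where a list has none, the 2 genes with the lowest adjusted p in *val1*, and other members of a list are named where they are partners or close relatives of a meristem gene. For each member upregulated in *val1*, up to 3 genes with the nearest profile are named. The members and lists were chosen with earlier results of these data known. Sequences and positions are from RefSeq TAIR10.1, whose nuclear chromosomes carry the coordinates of TAIR10, and miR171 sites were sought in coding sequences. Plots were drawn in matplotlib 3.10.9 (Python 3.11.15).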

Additional observations from a re-analysis of the deposited data

How the results depend on the processing

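Each of the 8 meristem genes was recomputed under 17 alternatives. In *val1* against WT no direction changed in 136 values, and the 5 genes that passed kept their call in 16 of the 17. Leaving out 1 library gave 4 or 5 genes, *CLV1* being lost without replicate 2 of WT. All 8 passed with library size alone and on the 3 TPM settings. Of all genes, 56.6% passed with library size alone and between 67.4% and 70.5% on the TPM settings, against 45.7% as reported. When a 2-fold change was asked for, 2 of the 8 passed, where 15.7% of all genes did. In the libraries labelled *val2* against WT, *STM* joined *HAM2*, making 2 genes, with library size alone, with a mean of at least 50 counts and with halved counts. The same 2 passed on the 3 TPM settings. Under these settings between 20.9% and 25.7% of all genes passed in that comparison. There the count was 0 when a 2-fold change was asked for and between 0 and 1 when 1 library was left out. Between *val1* and the libraries labelled *val2*, 5 genes passed under every alternative but the 2-fold threshold, which left 1. With only the 2 genotypes of a comparison in the fit, the counts were 5, 1 and 5 as reported.

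A replicate number marked no pairing: libraries of different genotypes with the same number deviated from their genotype means with correlations of 0.0309 to 0.0406 across genes. With the replicate block, 5 genes passed in *val1* against WT, 2 in the libraries labelled *val2* against WT (*STM* at 0.23, adjusted p = 0.0418) and 5 between *val1* and those libraries. Of all genes, 47.1%, 21.4% and 37.5% passed with the block in these comparisons.

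Changes of sign were found only among differences that passed in no setting. In the libraries labelled *val2* against WT, *PNY* (-0.04 as reported) was at 0.036 with library size alone, 0.075 without replicate 2 labelled *val2*, 0.038 without replicate 2 of WT, and 0.017 on each TPM setting. *HAM1* (-0.02) was at 0.063 with library size alone, 0.0072 without replicate 1 labelled *val2*, 0.013 without replicate 2 of WT, and 0.046 on log2(TPM + 1) with or without the filter and 0.048 on log2(TPM + 0.1). *PNF* was at -0.079 without replicate 1 labelled *val2*. Between *val1* and the libraries labelled *val2*, *STM* (-0.07) was at 0.066 with library size alone, 0.043 on log2(TPM + 1) with or without the filter and 0.044 on log2(TPM + 0.1). *CLV2* was at -0.031 without replicate 2 of *val1* and -0.019 without replicate 1 labelled *val2*, and *KNAT1* was at -0.044 without replicate 1 of *val1* and -0.039 without replicate 2 labelled *val2*. Over all settings with 1 library left out, the range was -0.17 to 0.075 for *PNY*, -0.079 to 0.58 for *PNF* and -0.042 to 0.013 for *HAM1* in the libraries labelled *val2* against WT. Between *val1* and those libraries it was -0.031 to 0.26 for *CLV2* and -0.044 to 0.10 for *KNAT1*. The cause was not tested.

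With 2 libraries per genotype, *CLV2* and *PNF* have wide intervals, and *CLV3*, at up to 6 counts, could not be compared. The lists and members were read from the same libraries, and all comparisons share groups.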
